A study of Mus musculus with 16 samples.

Results

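Organoids grown from normal mouse nasopharynx were compared with organoids grown from normal lung. Organoids are small 3-dimensional cultures of epithelial cells. The comparison uses 6 of the 16 libraries of the series, chosen by their titles: 3 of normal nasopharynx (Normal_nasopha) and 3 of normal lung (Normal_lung). The other 10 libraries are tumour organoids of a nasopharyngeal cancer study and enter no result here. All 6 libraries come from C57BL/6 mice, are labelled untreated and hold polyadenylated RNA, and the labels name no engineered allele for them. Age, sex, passage number and culture medium are not given, and the growth text of the labels speaks of tumours alone. The labels do not say whether the replicates of a tissue are separate animals or cultures of 1 animal, so a p-value here reflects library-to-library spread, which may be technical.

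The nasopharynx lies behind the nose and is lined by airway epithelium with stratified stretches. Basal cells that carry the transcription factor p63 and keratins 5 and 14 renew it, and nasal and pharyngeal glands secrete antimicrobial and odorant-carrying proteins. The gas-exchange part of the lung is built of alveolar type 2 cells, which make surfactant, and flat type 1 cells, which arise from them. Both lung lineages depend on the transcription factor NKX2-1, whereas the head and pharynx are patterned by homeobox factors of the DLX, PAX, OTX and sine oculis families. In bulk RNA, fewer cells of a type and less RNA per cell cannot be told apart, which holds for every value below.

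Total counts ran from 20138142 to 21737184 per library, and 3 counts, used as the detection floor, equal 0.138 to 0.149 CPM (counts scaled to the library total). Levels are given as CPM scaled by normalisation factors of 0.924 to 1.06, always in the order of replicates 1, 2 and 3, and a log2 difference is nasopharynx minus lung. Of 15886 genes tested with edgeR's quasi-likelihood test, 4935 (31.1%) differed at an adjusted p under 0.05: 2451 (15.4%) were higher in nasopharynx and 2484 (15.6%) higher in lung. A difference shown to exceed 2-fold was found for 2264 genes (14.3%), of which 1009 (6.35%) were higher in nasopharynx and 1255 (7.9%) in lung. The median log2 difference of all tested genes was 0.13, and for 50.5% of them the ranges of the 2 groups did not overlap. The shares of 15.4% and 15.6% are the background for every list count below that rests on all 6 libraries. Without lung replicate 1, 2 or 3 the first count was 3050, 3185 or 2657, and without lung replicate 3 the second was 1452. In these 3 fits 1315, 1409 or 1096 genes were higher in nasopharynx and 1735, 1776 or 1561 in lung. List counts below without a lung library thus stand against a lower background, and their fall is not particular to a list. Nasopharynx libraries varied more among themselves than lung libraries: of genes at 10 CPM or more, 35.0% differed over 2-fold between nasopharynx replicates and 5.86% between lung replicates. Xist, the non-coding RNA of the inactive X chromosome, was present at 879, 928 and 833 CPM in nasopharynx and 815, 662 and 710.5 in lung. The Y-linked Ddx3y, Kdm5d, Eif2s3y and Uty had no count in any of the 6 libraries.

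**Figure D1:**
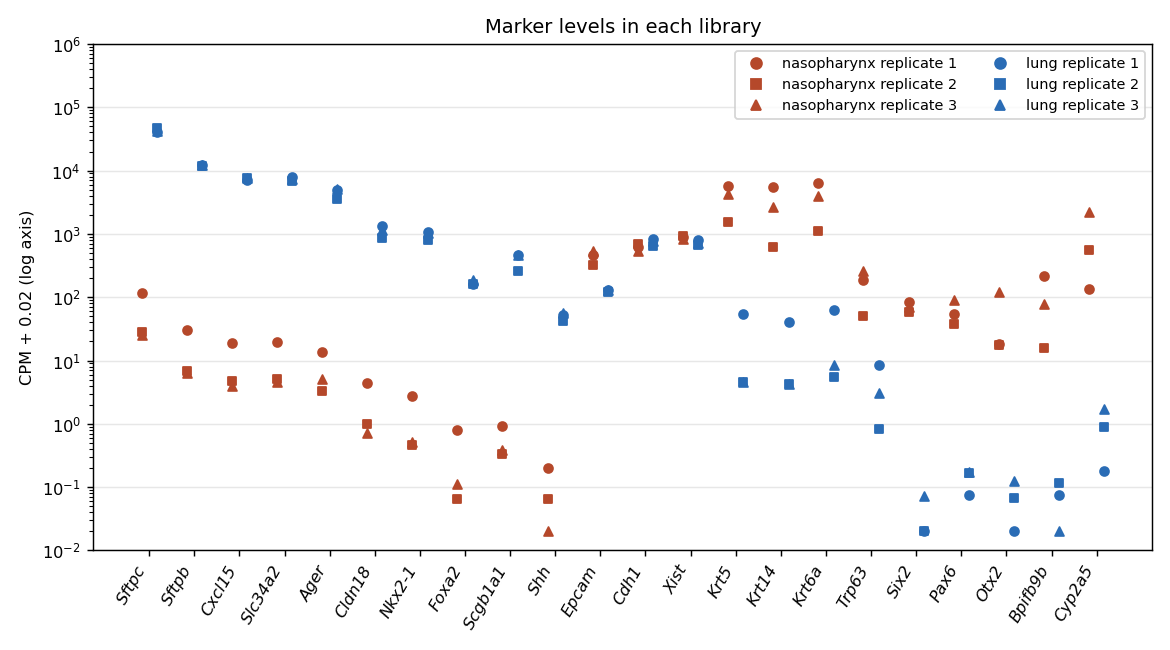
CPM plus 0.02 (log axis) of 22 genes in each nasopharynx (red) and lung (blue) library, with marker shapes for replicates 1 to 3. Lung genes such as Sftpc keep a low level in nasopharynx that is highest in replicate 1, and Krt5 and Krt14 in lung are highest in replicate 1.

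Both label sets were checked against their defining genes, and each tissue also carried a low level of the other tissue's genes. Sftpc, Sftpb, Sftpa1, Cxcl15 and Napsa, which alveolar type 2 cells make in large amounts, had a median of 0.297%, 0.0699% and 0.0644% of their mean lung CPM in nasopharynx replicates 1, 2 and 3. Sftpc, for example, had 2520, 624 and 545 counts there against 751504, 964781 and 825478 in lung. Among 2058 genes at 100 CPM or more in lung, 56, 77 and 61 lay under 1% of the lung mean in the nasopharynx libraries. Of these 2058 genes, 44, 31 and 20 lay within 2-fold of the alveolar median of that library, and 0, 2 and 0 lay below 0.5 times it. Nasopharynx replicate 1 therefore had the highest level of lung-type counts of the 3. Where a lung gene had nasopharynx counts near this level, the log2 difference after subtraction of that level, or the counts left, is given below. Whether these counts came from lung RNA in the nasopharynx libraries or from the nasopharynx cultures was not tested.

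In the opposite direction, Krt5 counts in lung replicates 1, 2 and 3 were 1.26%, 0.112% and 0.105% of the nasopharynx mean, and Krt14 counts 1.20%, 0.132% and 0.128%. Krt13 stood further apart, at 29.7%, 0.217% and 0.249%. Trp63 had 4.52%, 0.462% and 1.61%. Lung replicate 1 was thus the high library for these basal and squamous genes. For some other nasopharynx genes it was not: Bpifb4 counts were 0, 29 and 30 in lung replicates 1 to 3, Cyp2a5 counts 3, 18 and 33, and Six2 counts 0, 0 and 1. Of 57 genes at 100 CPM or more in nasopharynx and under 10 CPM in lung replicates 2 and 3, lung replicate 1 was the highest lung library for 38, replicate 2 for 15 and replicate 3 for 4. Replicate 1 lay over 4-fold above the mean of the other lung libraries for 20 of the 57 and over 4-fold below it for 2. The choice of the 57 limits lung replicates 2 and 3 but not replicate 1, so it favours replicate 1 in these counts. The part of these counts in the results was not tested, and values without lung replicate 1 are given where they move a result.

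**Figure D2:**
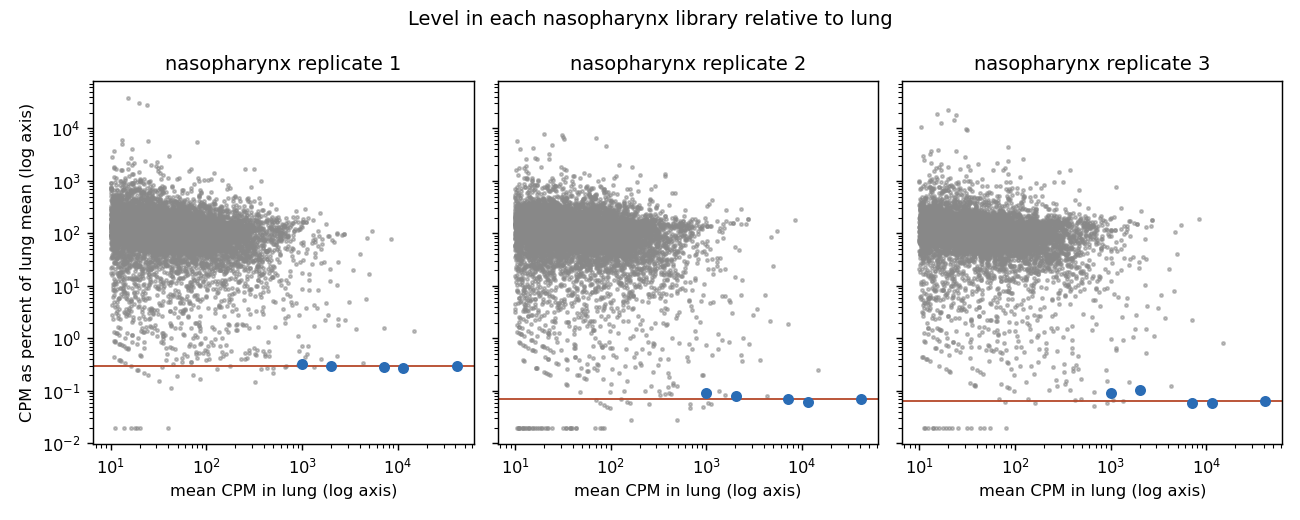
Each gene with at least 10 CPM in lung, plotted by its mean lung CPM (x, log axis) and its level in 1 nasopharynx library as percent of that mean (y, log axis, values under 0.02% drawn at 0.02%). Blue points are Sftpc, Sftpb, Sftpa1, Cxcl15 and Napsa, and the red line their median, at 0.297%, 0.0699% and 0.0644%, near the lower edge of the highly expressed genes.

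Lung organoids expressed the surfactant programme of alveolar type 2 cells at high level. Of 18 alveolar type 2 genes, 16 were higher in lung, a direction called for 15.6% of all genes, 0 were higher in nasopharynx and 2 were not called. Their median log2 difference was -7.10 against 0.13 for all genes, and without nasopharynx replicate 2 there was 1 gene higher in nasopharynx. Together these 18 genes took 7.91%, 9.23% and 8.41% of all CPM in the lung libraries and 0.125%, 0.0366% and 0.0805% in nasopharynx. To show the regulatory sequence of the genes on which this result rests, the 250 bases before the start site are printed for the 3 of the 5 trace genes that have an entry (RefSeq, GRCm38.p6, plus strand), with each TCAAG or its reverse complement CTTGA in capitals, the core bound by NKX2-1. Sftpb lies at chr6:72304360-72304609, Sftpa1 at chr14:41131538-41131787 and Cxcl15 at chr5:90794284-90794533.
Sftpb: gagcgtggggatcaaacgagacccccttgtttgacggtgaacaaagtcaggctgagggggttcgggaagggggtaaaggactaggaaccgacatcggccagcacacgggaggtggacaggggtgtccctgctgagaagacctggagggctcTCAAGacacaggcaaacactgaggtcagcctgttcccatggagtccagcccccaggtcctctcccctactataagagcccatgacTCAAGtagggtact
Sftpa1: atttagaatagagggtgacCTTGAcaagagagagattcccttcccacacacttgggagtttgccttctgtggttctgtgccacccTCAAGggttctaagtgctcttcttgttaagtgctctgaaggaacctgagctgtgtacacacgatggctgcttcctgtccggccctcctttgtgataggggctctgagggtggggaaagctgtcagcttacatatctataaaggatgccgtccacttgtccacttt
Cxcl15: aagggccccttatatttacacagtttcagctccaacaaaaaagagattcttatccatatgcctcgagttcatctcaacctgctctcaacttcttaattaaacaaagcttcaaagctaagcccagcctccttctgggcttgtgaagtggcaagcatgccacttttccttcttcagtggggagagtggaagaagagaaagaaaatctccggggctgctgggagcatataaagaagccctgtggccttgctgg
Sftpb and Sftpa1 each held 2 matches and Cxcl15 none, and 35.9% of 32851 promoter windows of 250 bases hold at least 1. The FOXA core TGTTTAC, or GTAAACA on the other strand, was found in none of the 3 and in 3.17% of all windows. Sftpc and Napsa are named only.

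Sftpc, which encodes surfactant protein C (chromosome 14 from 70520949 to 70524081, GRCm38), had 115, 27.7 and 24.9 CPM in nasopharynx and 40386, 46395 and 42791 in lung. Sftpb encodes surfactant protein B, needed for the surfactant film, and had 29.9, 6.92 and 6.32 CPM in nasopharynx and 12177, 11719 and 12309 in lung. All lung libraries lay far above all nasopharynx libraries, and within nasopharynx replicate 1 was the highest for both genes. The log2 differences were -9.60 ± 0.90 (SE) for Sftpc and -9.71 ± 0.89 for Sftpb, with adjusted p of 0.000627 and 0.000591. Slc34a2, the phosphate transporter of type 2 cells, had 19.4, 5.01 and 4.49 CPM in nasopharynx and 7846, 6974 and 7415 in lung. Cxcl15, the lung chemokine lungkine, had 19, 4.75 and 3.98 CPM in nasopharynx and 7192, 7666 and 7584 in lung. These genes followed the same order of libraries, with nasopharynx replicates 2 and 3 close to each other and replicate 1 above them. Napsa, the protease that processes surfactant protein B, had 3.04, 0.887 and 0.87 CPM in nasopharynx and 1097, 1029 and 1033 in lung, and Sftpa1, a collectin of the surfactant, 5.68, 1.55 and 1.97 CPM in nasopharynx and 1436, 2722 and 2169 in lung. Leaving out nasopharynx replicate 1 gave log2 differences of -10.71 for Sftpc and -10.86 for Sftpb.

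The 12 genes of largest lung excess among well-expressed genes spanned a narrow range of log2 differences, from -9.71 (Sftpb) to -9.07 (Akap5). Subtraction of lung counts at the alveolar median of each library left no nasopharynx count of Sftpc, Sftpb or Cxcl15. That median rests on these genes, Sftpa1 and Napsa, so the outcome follows from the subtraction and gives no size of difference. After it the log2 difference was -15.40 for Slc34a2, -10.77 for Akap5, -11.97 for Napsa and -12.67 for Sftpa1. These rest on few counts left, such as 0, 6 and 5 for Slc34a2. The size of each of these differences moved by over 1.5 times, and the calls remained. Subtraction lowers nasopharynx counts alone and so widens a lung excess, which means that the kept calls are no test of trace reads. Other type 2 genes lay well above the trace level in nasopharynx. Abca3, the lipid pump of lamellar bodies, had 49.6, 55.2 and 49.3 CPM in nasopharynx and 1824, 1951 and 2080.000 in lung, a log2 difference of -5.25 ± 0.23 and an adjusted p of 0.000128. Ctsh, a lysosomal protease, had 144, 84.3 and 111 CPM in nasopharynx and 3486, 3388 and 2864 in lung (log2 difference -4.84, adjusted p 0.00023). Nasopharynx libraries lay close to each other for Abca3 and Ctsh, and replicate 1 did not stand out for Abca3. Sftpd, another collectin, had 53.3, 23.9 and 91.4 CPM in nasopharynx and 2314, 2494 and 2726 in lung, with nasopharynx replicate 3 the highest. Lyz1, a lysozyme that lung type 2 cells secrete, had 1.09, 0.355 and 0.275 CPM in nasopharynx and 609, 429.5 and 305 in lung (log2 difference -9.60, -13.60 after subtraction). The members not called were Chil1, at 328, 23.4 and 59 CPM in nasopharynx and 509, 806 and 896 in lung, and Il33, an alarmin cytokine, at 104, 11.1 and 115 CPM in nasopharynx and 24.8, 14.8 and 10.8 in lung. Il33 was high in nasopharynx replicates 1 and 3 and its groups overlapped. In the fit without nasopharynx replicate 1 the log2 difference was -10.48 for Lyz1.

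Genes of alveolar type 1 cells were also higher in lung: 13 of 16 were called, none in the other direction, with a median log2 difference of -5.12. Ager, the receptor RAGE and the usual type 1 marker (chromosome 17 from 34597862 to 34600936), had 13.7, 3.28 and 5.04 CPM in nasopharynx and 4938, 3613 and 5112 in lung, a log2 difference of -9.27 ± 0.74 and an adjusted p of 0.000384. Clic5, a chloride channel-like protein, had 9.95, 11 and 11.7 CPM in nasopharynx and 3088, 1576 and 2736 in lung, with a log2 difference of -7.82 ± 0.40 and an adjusted p of 0.000128. Lung replicate 2 was the lowest lung library for both, while the nasopharynx libraries were level for Clic5 before subtraction of the trace level. After subtraction 76, 214 and 224 Clic5 counts were left in nasopharynx, with replicate 1 the lowest. Col4a3 and Col4a4, chains of the basement membrane shared by type 1 cells and capillaries, had 1.05, 0.311 and 0.412 CPM in nasopharynx and 427, 166 and 252 in lung and 1.5, 1.29 and 0.412 CPM in nasopharynx and 518, 206 and 327 in lung, respectively. Hopx, a homeodomain protein of type 1 cells, had 12.2, 33.6 and 32.6 CPM in nasopharynx and 1037, 366 and 692 in lung, and lung replicate 2 was again the lowest lung library. After subtraction of the trace level the log2 difference was -11.55 for Ager, -10.24 for Col4a3 and -9.10 for Col4a4. Pdpn, which marks type 1 cells but also basal cells, had 97.1, 70.002 and 74.8 CPM in nasopharynx and 104, 81 and 86 in lung and was not called (log2 difference -0.16 ± 0.20, adjusted p 0.557). The list's median was -5.73 without nasopharynx replicate 1. Without nasopharynx replicate 1 the log2 difference was -10.12 for Ager.

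Transcription factors of lung and foregut lineage followed the same direction, with 18 of 24 higher in lung, 3 higher in nasopharynx and a median log2 difference of -3.42. Nkx2-1, the master regulator of lung epithelium (chromosome 12 from 56531958 to 56536908), had 2.73, 0.444 and 0.504 CPM in nasopharynx and 1072, 798 and 1032 in lung, a log2 difference of -9.62 ± 0.86 and an adjusted p of 0.000556. After subtraction of the trace level 4, 0 and 0 Nkx2-1 counts were left in nasopharynx and the log2 difference was -13.83. Foxa2, a forkhead factor of foregut endoderm, had 0.773, 0.0444 and 0.0916 CPM in nasopharynx and 163, 164 and 185 in lung (log2 difference -9.11, -10.58 after subtraction). Its paralog Foxa1 had 72.6, 63 and 7.05 CPM in nasopharynx and 27.5, 27.7 and 29.9 in lung and was not called, with nasopharynx replicates 1 and 2 above lung and replicate 3 below it. Cebpa, a differentiation factor of type 2 cells, had 74.8, 56.8 and 81.9 CPM in nasopharynx and 640.5, 798 and 811 in lung, and Gata6, a zinc-finger factor of lung endoderm, 3.68, 1.73 and 1.1 CPM in nasopharynx and 125, 92.4 and 115 in lung. Their log2 differences were -3.40 ± 0.24 and -5.67 ± 0.48, with adjusted p of 0.000284 and 0.000481, and neither showed overlap between tissues. Leaving out single libraries gave a range from -6.32 (without nasopharynx replicate 1) to -5.39 (without nasopharynx replicate 3) for Gata6 and from -11.01 (without nasopharynx replicate 1) to -9.23 (without nasopharynx replicate 2) for Nkx2-1. The log2 difference without nasopharynx replicate 1 was -11.21 for Foxa2.

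Against the direction of that list, Sox9, Etv4 and Klf5 were higher in nasopharynx. Sox9, a factor of distal lung progenitors and of glands, had 19, 27.9 and 23.2 CPM in nasopharynx and 0.914, 0.529 and 0.622 in lung, a log2 difference of 5.08 ± 0.35 and an adjusted p of 0.000277. Klf5, a Krüppel-like factor of many epithelia, had 176, 179 and 200.3 CPM in nasopharynx and 74.4, 53.4 and 71.4 in lung (log2 difference 1.48, adjusted p 0.00196). The ETS factors that report fibroblast growth factor signalling split: Etv4 had 88.2, 41.6 and 70.04 CPM in nasopharynx and 6.93, 13.9 and 8.03 in lung and Etv5 67.1, 48.8 and 78.9 CPM in nasopharynx and 539, 495 and 498 in lung. Etv4 was higher in every nasopharynx library and Etv5 in every lung library, with adjusted p of 0.00269 and 0.000371. Irx1, Irx2, Irx3 and Irx5, homeobox factors of the Iroquois family, were higher in lung, as were Tbx2, Tbx3, Tbx4 and Tbx5, T-box factors of lung mesenchyme. Tbx4 had 0.0909, 0.0887 and 0 CPM in nasopharynx and 6.72, 32.8 and 6.95 in lung, with lung replicate 2 the highest. The Irx5 call was lost without lung replicate 1.

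Hox genes give cells their position along the body axis and are silent in tissue of the anterior head. Only 3 of the 39 passed the filter on low counts, so the others are described by counts alone: their sum over all 39 genes was 0.273, 0.488 and 0.137 CPM in nasopharynx and 10.9, 18.2 and 7.10 CPM in lung. Hoxa5, which is needed for lung development, had no count in nasopharynx and 2.58, 3.99 and 1.5 CPM in lung, at least 59.6-fold higher in lung with a floor of 3 counts over the group (adjusted p 0.00363). Hoxb6 had 1 count in all nasopharynx libraries together and 1.56, 3.37 and 0.829 CPM in lung, a ratio of 127 with a counting interval of 22.9 to 5029.7 (adjusted p 0.0042). Hoxb4 had 0.182, 0 and 0 CPM in nasopharynx and 2.2, 3.13 and 1.81 in lung, with an adjusted p of 0.00908. All 3 were higher in each lung library than in any nasopharynx library, and lung replicate 2 was the highest. Without any 1 nasopharynx library 6 Hox genes passed the filter and were higher in lung, and without lung replicate 1 or 3 it was 4 or 5. Leaving out a library also lowers the number of libraries that the filter asks for. Genes with almost no nasopharynx count pass it through the lung libraries, so the direction of these calls was nearly fixed by the filter. Moves of over 1.5 times in these ratios or bounds followed from leaving out lung replicate 2 (79.3 for Hoxb6), nasopharynx replicate 1 (at least 28.4 for Hoxb6) and nasopharynx replicate 2 (at least 39.3 for Hoxa5 and 84.1 for Hoxb6).

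Nasopharynx organoids expressed patterning factors of the pharynx and head. Of 39 such factors listed, 27 passed the filter on low counts. Members with almost no lung count, such as Six2 and Eya4, passed it through the nasopharynx libraries, which favours that direction. Of these, 23 were higher in nasopharynx, a direction called for 15.4% of all genes, and none in lung, with a median log2 difference of 5.28, or 4.47 with genes that had no lung count set at their bound. Without nasopharynx replicate 1 the counts were 21 and 2, and without nasopharynx replicate 2 they were 23 and 1. Six2, a sine oculis homeobox factor (chromosome 17 from 85684277 to 85688274), had 83.7, 58.2 and 70.8 CPM in nasopharynx and 0, 0 and 0.0518 in lung. Its single lung count gives a ratio of 4160.2 with a counting interval of 747 to 164319 (adjusted p 0.000128). Pax6, the paired-box factor of eye and nasal placodes (chromosome 2 from 105668900 to 105697364), had 54.6, 37.8 and 90.2 CPM in nasopharynx and 0.0537, 0.144 and 0.156 in lung, a log2 difference of 8.93 ± 0.55 and an adjusted p of 0.000208. Both genes were above 35 CPM in every nasopharynx library and under 0.2 CPM in every lung library, and lung replicate 1 did not stand out for either. The list's median was 4.66 without lung replicate 2 and 4.62 without lung replicate 3. The ratios or bounds moved by over 1.5 times on leaving out lung replicate 2 (2686 for Six2) and lung replicate 3 (at least 931 for Six2).

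Eya4, a partner of sine oculis factors, had 14, 8.87 and 23.3 CPM in nasopharynx and no lung count, at least 301-fold higher in nasopharynx (adjusted p 0.00141). Otx2, a head homeobox factor, had 17.9, 17.7 and 122 CPM in nasopharynx and 0, 0.0481 and 0.104 in lung, and nasopharynx replicate 3 was several times above the other two. Dlx5, a factor of the branchial arches, had 2.36, 2.84 and 4.03 CPM against no lung count, at least 60.2-fold higher, and Dlx6, its neighbour, 0.727, 1.29 and 2.61 CPM, at least 30.1-fold higher. Isl1, a LIM homeobox factor, had 27.9, 16.1 and 9.66 CPM in nasopharynx and 0.161, 0.0962 and 0.259 in lung, and Pitx1, a paired-like factor of the oral and pharyngeal region, 138, 45.2 and 173 CPM in nasopharynx and 3.28, 0.144 and 0.104 in lung. Pitx1 in lung was highest in replicate 1, without which its log2 difference was 9.82 in place of 6.67. Pax9, a factor of pharyngeal pouches, had 32.5, 17.8 and 5.04 CPM in nasopharynx and 2.74, 0.24 and 1.24 in lung (log2 difference 3.71 ± 0.97, adjusted p 0.0267). The groups did not overlap for Pax9, but its call was lost without nasopharynx replicate 1, lung replicate 2 or lung replicate 3. Sox2, an anterior foregut factor, had 116, 25.6 and 121 CPM in nasopharynx and 20.3, 15.7 and 29.8 in lung, with nasopharynx replicate 2 inside the lung range, and its call was lost in 5 of 6 fits that left out a library. Tbx1, a pharyngeal factor altered in DiGeorge syndrome, had 11.3, 0.0887 and 1.42 CPM in nasopharynx and 29.2, 16.9 and 24.6 in lung and was not called. Moves of over 1.5 times in these ratios or bounds followed from leaving out lung replicate 2 (at least 194 for Eya4, at least 38.9 for Dlx5 and at least 19.5 for Dlx6) and nasopharynx replicate 3 (at least 19.7 for Dlx6). When lung replicate 1 was left out, the log2 difference was 4.63 for Pax9. With nasopharynx replicate 1 left out the log2 difference was 2.97 for Pax9.

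**Figure D3:**
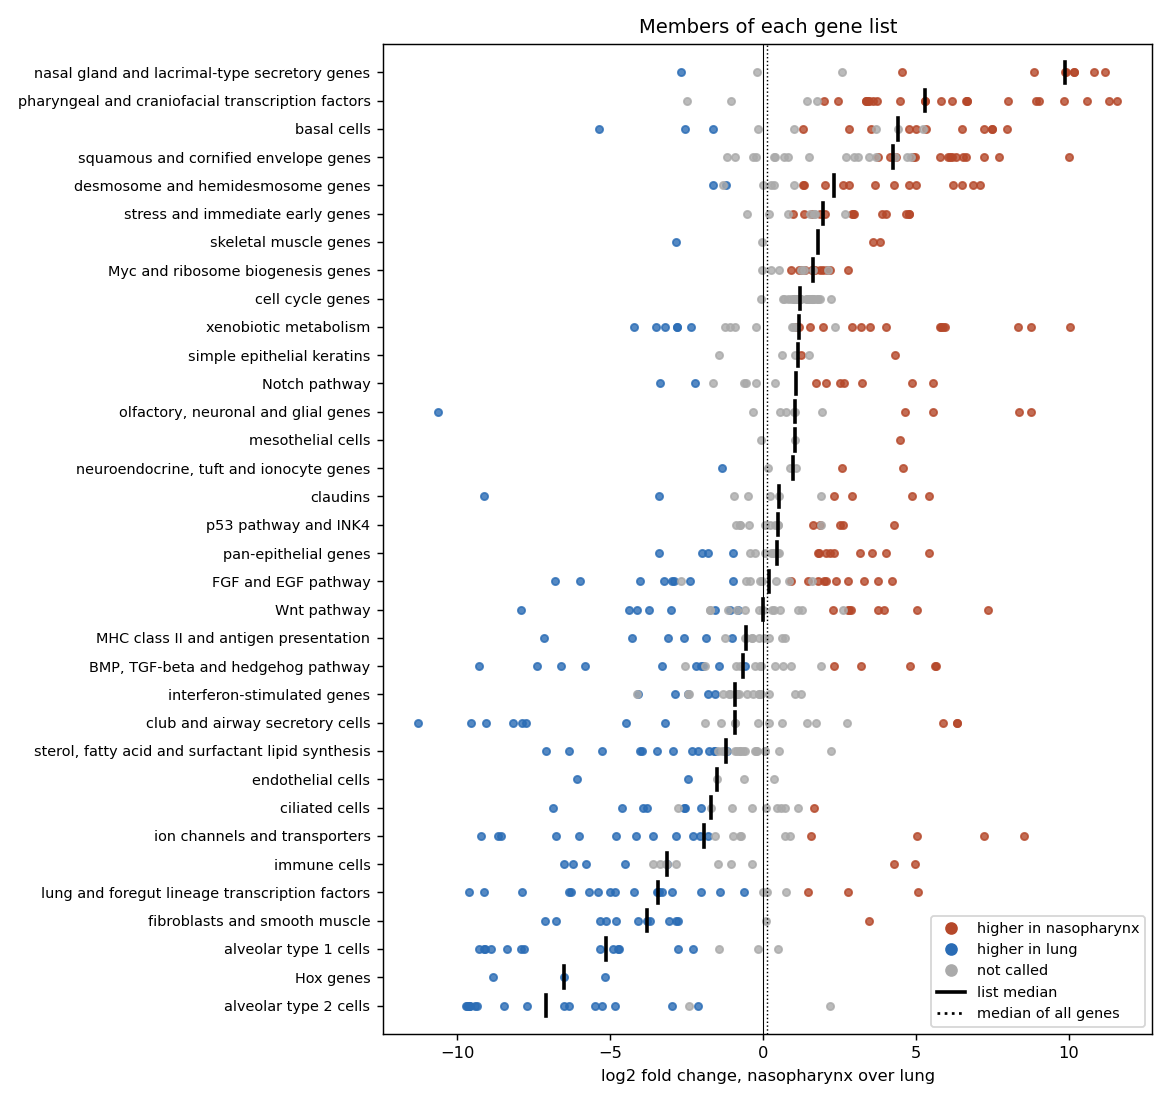
Log2 differences (nasopharynx minus lung, x) of the tested members of each gene list (rows, sorted by median, lists with 3 or more tested members). Colour gives the call, bars the list median and the dotted line the median of all genes at 0.13, and the list medians run from -7.10 for alveolar type 2 cells to 9.88 for nasal gland genes.

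Basal cell genes were the other large group of nasopharynx. Of 19 tested, 11 were higher in nasopharynx, 3 higher in lung and 5 not called, with a median log2 difference of 4.43. Krt5, the basal keratin (chromosome 15 from 101707070 to 101712898), had 5774, 1522 and 4201 CPM in nasopharynx and 55.2, 4.62 and 4.56 in lung, a log2 difference of 7.48 ± 1.35 and an adjusted p of 0.00687. Krt14, its filament partner (chromosome 11 from 100203162 to 100207548), had 5549, 624 and 2706 CPM in nasopharynx and 40.8, 4.18 and 4.3 in lung, a log2 difference of 7.49 ± 1.41 and an adjusted p of 0.00817. Krt17, a keratin of basal and wounded epithelium, had 2726, 867 and 2728 CPM in nasopharynx and 19.5, 2.69 and 2.85 in lung (log2 difference 7.98 ± 1.13, adjusted p 0.00276). For all of these keratins nasopharynx replicate 2 was the lowest nasopharynx library and lung replicate 1 several times above the other lung libraries, with no overlap between tissues. Leaving out single libraries gave ranges from 6.99 (without lung replicate 3) to 9.70 (without lung replicate 1) for Krt5, from 6.66 (without nasopharynx replicate 1) to 9.44 (without lung replicate 1) for Krt14 and from 7.55 (without lung replicate 2) to 9.56 (without lung replicate 1) for Krt17.

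Trp63, which encodes p63, the transcription factor that maintains basal cells (chromosome 16 from 25683763 to 25892102), had 185, 50.9 and 259.5 CPM in nasopharynx and 8.54, 0.818 and 3.01 in lung, a log2 difference of 5.33 ± 0.98 and an adjusted p of 0.00756. Itgb4, the integrin chain of hemidesmosomes, had 1337, 272 and 846 CPM in nasopharynx and 26.5, 25.1 and 25.6 in lung (log2 difference 4.99 ± 0.60, adjusted p 0.00154). Lama3, a chain of laminin 332, had 215, 154 and 336 CPM in nasopharynx and 9.62, 7.84 and 8.35 in lung (log2 difference 4.77 ± 0.35, adjusted p 0.000299). Lung replicate 1 was the highest lung library for Itgb4 and Lama3 by a small margin, without the rise of several times seen for the keratins. Whether it held a smaller rise, masked by the level of these genes in all lung libraries, was not tested. Lamb3, another laminin chain, had 486, 211 and 661 CPM in nasopharynx and 226, 208 and 234 in lung and was not called. Bcam, a laminin receptor, and Icam1, an adhesion molecule for leukocytes that type 1 cells also carry, were higher in lung, Icam1 at 54.8, 15.7 and 31.5 CPM in nasopharynx and 1595, 1143 and 1458 in lung. Ngfr, the nerve growth factor receptor of airway basal cells, had 36, 3.37 and 31.8 CPM in nasopharynx and 3.12, 0 and 0.207 in lung and was not called (adjusted p 0.0665), with lung replicate 1 and nasopharynx replicate 2 at the same level. The log2 difference of Trp63 was 6.43 without lung replicate 1.

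Squamous and cornified envelope genes, which stratified epithelia switch on above the basal layer, were higher in nasopharynx for 15 of 32 tested, and none was higher in lung. Their median log2 difference was 4.24, and without nasopharynx replicate 1 the counts were 18 and 2. Krt6a, a keratin of activated and mucosal epithelium, had 6427, 1110.4 and 3996 CPM in nasopharynx and 63.6, 5.48 and 8.61 in lung (log2 difference 7.22 ± 1.31, adjusted p 0.00704). Sprr1a, a small proline-rich precursor of the envelope, had 542, 432 and 896 CPM in nasopharynx and 11.3, 3.65 and 5.34 in lung (log2 difference 6.53 ± 0.58, adjusted p 0.000544). Cst6, a cystatin that restrains envelope proteases (chromosome 19 from 5344705 to 5349574), had 136, 211 and 469 CPM in nasopharynx and 0.269, 0.144 and 0.363 in lung (log2 difference 10.02 ± 0.71, adjusted p 0.000284). Krt6a shared the high lung replicate 1 of the basal keratins, whereas Cst6 was under 0.4 CPM in every lung library and highest in nasopharynx replicate 3. Alox12, a lipoxygenase of epithelial barrier lipids, had 8.45, 7.99 and 20.3 CPM in nasopharynx and 0.43, 0.481 and 0.311 in lung (adjusted p 0.00116). Leaving out lung replicate 1 moved Krt6a to 9.09, and leaving out nasopharynx replicate 3 moved Cst6 to 9.32. The list's median was 7.33 without lung replicate 1. Omitting nasopharynx replicate 1 gave a log2 difference of 6.62 for Krt6a.

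Not all squamous genes followed. Krt16, which pairs with Krt6a, was higher in nasopharynx at 782, 314 and 860.2 CPM in nasopharynx and 26.5, 0.914 and 1.04 in lung, but its call was lost without lung replicate 3. Krt13, the keratin of non-cornified mucosa, had 368, 18.9 and 108 CPM in nasopharynx and 56.4, 0.385 and 0.467 in lung and was not called, and its lung replicate 1 lay above nasopharynx replicate 2. Krt4, the partner of Krt13, had 121, 1.69 and 11.2 CPM in nasopharynx and 142, 44.4 and 116 in lung and was not called either. Ivl, Evpl, Ppl and Tgm1, which encode the scaffold of the cornified envelope and its cross-linking enzyme, were not called: Ppl, for example, had 221, 109.5 and 123 CPM in nasopharynx and 171, 175 and 223 in lung. Among simple epithelial keratins, Krt18 had 860.1, 871 and 821 CPM in nasopharynx and 357, 351 and 382 in lung and Krt23 192, 182 and 307 CPM in nasopharynx and 11.6, 11.7 and 11.2 in lung, both higher in nasopharynx (adjusted p 0.00317 and 0.000216). Their partner Krt8, at 699, 421 and 494 CPM in nasopharynx and 262, 409 and 379 in lung, was not called, and neither was Krt7, at 477, 171 and 85.7 CPM in nasopharynx and 696, 577 and 734 in lung, or Krt19, at 1555, 229 and 525 CPM in nasopharynx and 326, 357 and 447 in lung. Without nasopharynx replicate 1 there was 1 gene of this list higher in lung.

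Secretory products of nasal and lacrimal-type glands, including members of the BPI fold and lipocalin families, were mostly higher in nasopharynx where they were tested. Of 23 genes listed, 11 were tested, of which 8 were higher in nasopharynx and 1 in lung, with a median log2 difference of 9.88, or 7.07 with undetected genes at their bound. Members with 0 to 3 lung counts, such as Obp1a and Bpifb9b, passed the filter through the nasopharynx libraries. The count and the median therefore favour that direction. Bpifb9b, a BPI fold protein (chromosome 2 from 154307227 to 154320646), had 215, 15.6 and 79 CPM in nasopharynx and 0.0537, 0.0962 and 0 in lung. With 3 lung counts in all, its ratio was 2019 with a counting interval of 691 to 9789.9 (adjusted p 0.00199). Bpifb9a, a close paralog whose reads the counting could have split with it, had 107, 8.03 and 50.1 CPM in nasopharynx and 0, 0.144 and 0 in lung (adjusted p 0.00282). Replicates 1 and 3 were the high nasopharynx libraries for both and replicate 2 the low one. Bpifb4 had a different order, with 186, 461 and 2750.3 CPM in nasopharynx and 0, 1.39 and 1.56 in lung (log2 difference 10.15 ± 1.66, adjusted p 0.00478), and without nasopharynx replicate 3 its log2 difference was 8.28. The list's median was 8.34 without nasopharynx replicate 1, 8.28 without nasopharynx replicate 3, 8.45 without lung replicate 1 and 8.43 without lung replicate 3. The ratios or bounds moved by over 1.5 times on leaving out lung replicate 2 (3911 for Bpifb9b) and nasopharynx replicate 1 (925 for Bpifb9b).

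Odorant-binding proteins, lipocalins that carry small molecules in nasal mucus, were detected in nasopharynx. Obp2a had 18.4, 2.26 and 11.5 CPM in nasopharynx and 0, 0.0481 and 0 in lung (ratio 630.04, counting interval 113 to 24885), and Obp1a had 26.8, 7.01 and 7.74 CPM against no lung count, at least 271-fold higher. The adjusted p were 0.00263 and 0.0039. Ltf, the iron-binding lactoferrin of gland secretions, was the most abundant, at 4014, 596 and 1315 CPM in nasopharynx and 98.3, 25.8 and 129 in lung (log2 difference 4.55 ± 0.92, adjusted p 0.0106), and leaving out nasopharynx replicate 1 gave 3.49. Nasopharynx replicate 2 was the low library for Obp2a, Obp1a and Ltf. Lcn2, the siderophore-binding lipocalin 2, went the other way, at 210.5, 43.8 and 173 CPM in nasopharynx and 845, 1135 and 752 in lung (log2 difference -2.68 ± 0.57, adjusted p 0.0124). Moves of over 1.5 times in these ratios or bounds followed from leaving out lung replicate 2 (at least 136 for Obp2a and at least 175 for Obp1a) and nasopharynx replicate 1 (404 for Obp2a and at least 144 for Obp1a).

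Club and other airway secretory genes that were called were mostly higher in lung. Of 21 tested, 8 were higher in lung, against 15.6% of all genes, and 10 were not called. The 3 higher in nasopharynx are a share near the 15.4% of all genes. Scgb1a1 and Scgb3a2, with few or no nasopharynx counts, passed the filter on low counts through the lung libraries, which favours the lung direction. Scgb1a1, the secretoglobin that defines club cells (chromosome 19 from 9083636 to 9087958), had 0.909, 0.311 and 0.366 CPM in nasopharynx and 459, 256 and 469 in lung (log2 difference -9.53 ± 0.55, adjusted p 0.000168). Its nasopharynx values lay at the trace level, and after subtraction its log2 difference was -12.54. Scgb3a2 had no nasopharynx count and 30.1, 5.39 and 8.97 CPM in lung, at least 328-fold higher in lung (adjusted p 0.00509). Sec14l3, a lipid-binding protein, had 5.45, 0.621 and 6.41 CPM in nasopharynx and 1326, 831 and 1427 in lung (log2 difference -8.16, -8.80 after subtraction), and Hp, haptoglobin, 9.36, 1.73 and 2.15 CPM in nasopharynx and 922, 603 and 1337 in lung (adjusted p 0.00117). Lypd2 was higher in nasopharynx at 124, 42 and 194 CPM in nasopharynx and 1.77, 1.11 and 1.56 in lung (log2 difference 6.34 ± 0.65, adjusted p 0.000847). Agr2, a disulfide isomerase of mucous cells, had 23, 6.79 and 110.2 CPM in nasopharynx and 0.86, 0.144 and 0.726 in lung, with nasopharynx replicate 3 the highest and a log2 difference of 4.67 without it, against 6.34 with all libraries. The gel-forming mucins Muc5b, at 29.99, 4.3 and 30.7 CPM in nasopharynx and 34.1, 7.31 and 15.9 in lung, and Muc5ac, at 3, 0.133 and 1.1 CPM in nasopharynx and 5.43, 1.01 and 1.61 in lung, were not called, and Bpifa1, an abundant airway antimicrobial, had 500.1, 11.1 and 84.3 CPM in nasopharynx and 977, 168 and 395 in lung with overlapping groups. The ratios or bounds moved by over 1.5 times on leaving out lung replicate 1 (at least 159 for Scgb3a2) and nasopharynx replicate 2 (at least 217 for Scgb3a2). Leaving out nasopharynx replicate 1 gave log2 differences of -10.19 for Scgb1a1.

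Ciliated cell genes were low in both tissues. Of 17 tested, 7 were higher in lung and 1 in nasopharynx, and without lung replicate 1, 2 or 3 the lung count was 5, 6 or 5 and the nasopharynx count 0. Members with almost no nasopharynx count, such as Dynlrb2 and Spag6l, passed the filter on low counts through the lung libraries, which favours the lung direction. Foxj1, the master regulator of motile cilia (chromosome 11 from 116330704 to 116335399), had 0.818, 0.0444 and 0.32 CPM in nasopharynx and 4.51, 15 and 9.69 in lung (log2 difference -4.61 ± 0.91, adjusted p 0.00987). Tppp3, a tubulin-binding protein of ciliated cells, had 2.09, 1.55 and 1.97 CPM in nasopharynx and 30.8, 22.9 and 24.3 in lung (adjusted p 0.000299), and Dynlrb2, a dynein light chain, 0.0454, 0 and 0.0458 CPM in nasopharynx and 5.59, 3.32 and 3.68 in lung (adjusted p 0.000869). Foxj1 was under 1 CPM in every nasopharynx library and the lung libraries were all above it. The axonemal dynein Dnah5 had 0.0454, 0 and 0 CPM in nasopharynx and 0.967, 0.192 and 1.35 in lung and was not tested. Spag6l, an axonemal protein, had 0.0454, 0.0444 and 0.0458 CPM in nasopharynx and 0.645, 0.914 and 0.726 in lung, and Tubb4b, a tubulin of cilia and other cells, 595, 531 and 204 CPM in nasopharynx and 141, 252 and 208 in lung. Rsph1, a radial spoke protein, was higher in nasopharynx at 3.64, 4.26 and 8.01 CPM in nasopharynx and 1.77, 1.2 and 1.97 in lung, and its call was lost without nasopharynx replicate 3 or any single lung library. The log2 difference of Foxj1 without nasopharynx replicate 1 was -5.72.

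Enzymes that metabolise foreign compounds were mostly higher in nasopharynx, a tissue known for strong cytochrome P450 activity against inhaled chemicals. Of 29 tested, 15 were higher in nasopharynx and 6 in lung, and without lung replicate 3 the counts were 9 and 5. The summed level of the list was 9332, 13831 and 28275 CPM in nasopharynx and 2531, 3146 and 3199.7 in lung. Nasopharynx replicate 3 held the highest sum, and every nasopharynx library lay above every lung library. Gsto1, an omega-class glutathione transferase (chromosome 19 from 47854970 to 47864790), had 3426, 4451 and 5572 CPM in nasopharynx and 316, 401 and 460.01 in lung (log2 difference 3.51 ± 0.31, adjusted p 0.00054). Gsta4, which conjugates lipid aldehydes, had 2089.5, 2276 and 4038 CPM in nasopharynx and 253, 364 and 298 in lung (log2 difference 3.20 ± 0.35, adjusted p 0.00113). Aldh3a1, an aldehyde dehydrogenase of cornea and airway, had 654, 425 and 2043 CPM in nasopharynx and 18.3, 20.6 and 14.3 in lung (log2 difference 5.88 ± 0.69, adjusted p 0.00142). In the fit without nasopharynx replicate 3 the log2 difference was 4.89 for Aldh3a1.

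Cyp2a5, a cytochrome P450 of olfactory and nasal mucosa that oxidises nicotine and coumarin, had 133, 547 and 2213 CPM in nasopharynx and 0.161, 0.866 and 1.71 in lung (log2 difference 10.03 ± 1.46, adjusted p 0.00313). Cyp2g1, an olfactory P450, had 1.64, 6.65 and 64.9 CPM in nasopharynx and 0, 0.0962 and 0.0518 in lung (adjusted p 0.0118), and its call was lost without lung replicate 1 or 3. For both the nasopharynx libraries lay far apart, with replicate 3 the highest and replicate 1 the lowest. Nqo1, a quinone reductase under control of NRF2, had 521, 708 and 3154 CPM in nasopharynx and 14.6, 35.6 and 21.4 in lung (log2 difference 5.93 ± 0.88, adjusted p 0.00331), and Adh7, which is not on the list, the alcohol dehydrogenase of upper digestive and airway epithelium, 288, 192 and 1517 CPM in nasopharynx and 4.62, 5 and 3.16 in lung (log2 difference 7.29 ± 0.98, adjusted p 0.0023). Without nasopharynx replicate 3 the log2 differences were 8.47 for Cyp2a5, 4.64 for Nqo1, 5.78 for Adh7 and 4.89 for Aldh3a1. In lung, Cyp2b10, Aldh1a1 and Aox3 were higher: Aox3, an aldehyde oxidase, had 13.5, 5.06 and 36.3 CPM in nasopharynx and 217, 204 and 195 in lung (adjusted p 0.00874). Cyp2f2, a P450 of club cells, had 73.3, 23.3 and 171 CPM in nasopharynx and 129, 109.8 and 263 in lung and was not called. Without lung replicate 3 the log2 difference was 10.82 for Cyp2a5.

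Lipid synthesis genes were higher in lung where they were called: 14 of 30 were higher in lung and none in nasopharynx, with a median log2 difference of -1.22. Without nasopharynx replicate 2 the counts were 16 and 2. The summed level was 6785, 2089 and 3927 CPM in nasopharynx and 42182, 28549 and 34322 in lung. Scd1, the desaturase that makes oleate and palmitoleate (chromosome 19 from 44394455 to 44407879), had 193, 36.1 and 113 CPM in nasopharynx and 22009.8, 10640.000 and 14303 in lung (log2 difference -7.10 ± 0.79, adjusted p 0.00114). Lpcat1, the acyltransferase that makes the dipalmitoyl lipid of surfactant, had 59.4, 20.8 and 29.7 CPM in nasopharynx and 3113, 2817 and 2928 in lung (log2 difference -6.33 ± 0.50, adjusted p 0.000364). Elovl1, a fatty acid elongase, had 115, 90.7 and 81.9 CPM in nasopharynx and 1586, 1569 and 1482 in lung (log2 difference -4.01 ± 0.24, adjusted p 0.000184). Lung libraries were close together for Lpcat1 and Elovl1, and replicate 1 was the highest of them for Scd1. Fasn, fatty acid synthase, had 637, 119.8 and 215 CPM in nasopharynx and 3852, 3069.8 and 3766 in lung (adjusted p 0.00752), and without nasopharynx replicate 1 its log2 difference was -4.43 in place of -3.46. Sqle, an enzyme of sterol synthesis, had 223, 74.1 and 131 CPM in nasopharynx and 149, 169.7 and 182 in lung and was not called, with nasopharynx replicate 2 the lowest library. The log2 difference without nasopharynx replicate 1 was -7.72 for Scd1.

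Cell junction genes differed by family member. Among desmosome and hemidesmosome genes 13 of 20 were higher in nasopharynx and 2 in lung, with a median log2 difference of 2.33. Perp, a p63 target in desmosomes, had 639.6, 399 and 807 CPM in nasopharynx and 38, 26.4 and 31.4 in lung (log2 difference 4.27 ± 0.34, adjusted p 0.000376). Plakophilins split: Pkp3 had 179, 197 and 124 CPM in nasopharynx and 38.4, 38.2 and 46 in lung and was higher in nasopharynx (adjusted p 0.00118), while Pkp2 had 28.9, 33.1 and 20.8 CPM in nasopharynx and 63.3, 53.8 and 74 in lung and was higher in lung (adjusted p 0.00918). Dsg3, the desmoglein of basal layers, had 98.5, 39.8 and 183 CPM in nasopharynx and 2.58, 0.144 and 0.0518 in lung, and without lung replicate 1 its log2 difference was 9.99 in place of 6.87. Dsg2, the desmoglein of simple epithelia, had 82.2, 84.2 and 117 CPM in nasopharynx and 75.2, 58.7 and 86.3 in lung and was not called. When nasopharynx replicate 3 was left out, the log2 difference was 6.21 for Dsg3.

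Of 11 claudins, the seal proteins of tight junctions, 4 were higher in nasopharynx and 2 in lung, against 15.4% and 15.6% of all genes, and without lung replicate 2 the counts were 2 and 2. Cldn18, whose lung isoform marks alveolar epithelium (chromosome 9 from 99689461 to 99717267), had 4.45, 0.976 and 0.687 CPM in nasopharynx and 1357, 854 and 1169.7 in lung (log2 difference -9.11 ± 0.88, -10.85 after trace subtraction, adjusted p 0.000703). Cldn3 had 38.1, 64.9 and 25.9 CPM in nasopharynx and 358, 487 and 500.4 in lung (log2 difference -3.38 ± 0.38, adjusted p 0.00121), and Cldn1, a claudin of stratified epithelium, 9.45, 13.8 and 12.1 CPM in nasopharynx and 0.215, 0.385 and 0.207 in lung (log2 difference 5.41 ± 0.43, adjusted p 0.000364). Cldn3 was higher in every lung library and Cldn1 in every nasopharynx library. Cldn4 had 256, 1179.7 and 288 CPM in nasopharynx and 98.7, 118 and 128 in lung, with nasopharynx replicate 2 several times above the others, and its call was lost without any single lung library. Epcam, the epithelial adhesion molecule, had 457, 319.7 and 541 CPM in nasopharynx and 130.4, 119.6 and 129 in lung (log2 difference 1.80 ± 0.24, adjusted p 0.00211), and Cdh1, E-cadherin, 613, 698 and 542 CPM in nasopharynx and 830.5, 633 and 772 in lung and was not called (adjusted p 0.369). Tjp1, the tight junction scaffold ZO-1, had 129.97, 127 and 88.3 CPM in nasopharynx and 595, 298 and 477 in lung (adjusted p 0.00399), and Cldn23, a further claudin, 8.18, 15.9 and 12.6 CPM in nasopharynx and 0.43, 0.0962 and 0.726 in lung (adjusted p 0.00277). Epcam and Cdh1 exceeded 100 CPM in all 6 libraries. Grhl1 and Ovol1, transcription factors of epithelial differentiation, were higher in nasopharynx, at 36.3, 29.1 and 36.6 CPM in nasopharynx and 8.81, 7.84 and 7.67 in lung and 20.8, 14.7 and 22.8 CPM in nasopharynx and 1.02, 1.01 and 1.56 in lung, and Esrp2, an epithelial splicing factor, was higher in lung, at 69.4, 58.9 and 69.7 CPM in nasopharynx and 190.1, 229.9 and 267 in lung. Their adjusted p were 0.000803, 0.000493 and 0.00107. With nasopharynx replicate 1 left out the log2 difference was -10.43 for Cldn18.

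Ion transport genes were higher in lung for 12 of 22 and higher in nasopharynx for 4. Scnn1g, a subunit of the epithelial sodium channel that clears alveolar fluid, had 0.636, 0.0887 and 0.412 CPM in nasopharynx and 219, 98.6 and 153 in lung (log2 difference -8.68 ± 0.64, -9.71 after trace subtraction). Scnn1a, the channel's pore subunit, had 23.6, 59.4 and 79.6 CPM in nasopharynx and 1101, 711 and 1104 in lung. Slc39a8, a zinc and manganese importer (chromosome 3 from 135825279 to 135888572), had 5.45, 6.52 and 4.9 CPM in nasopharynx and 372, 348 and 380.2 in lung (log2 difference -6.03 ± 0.22, adjusted p 7.52e-05), and its nasopharynx values lay above the trace level. Every lung library was higher than every nasopharynx library for these genes. Aquaporins split by type: Aqp5, the water channel of type 1 cells and glands, had 452, 87.8 and 578 CPM in nasopharynx and 1911, 1520.4 and 1968 in lung, and Aqp3, the basal cell channel, 2014, 199 and 1707 CPM in nasopharynx and 19.7, 2.16 and 4.35 in lung (adjusted p 0.0333 and 0.00681). Clca2, a regulator of chloride currents found in basal cells, had 12.4, 1.33 and 12 CPM in nasopharynx and 0.0537, 0 and 0 in lung (adjusted p 0.00402). Its single lung count gives a ratio of 503 with a counting interval of 90.2 to 19849. The ratio was at least 114 without lung replicate 1 and 324 without lung replicate 2. The sodium-glucose transporter Slc5a1 had 9.45, 7.36 and 8.88 CPM in nasopharynx and 2.63, 2.74 and 3.32 in lung (adjusted p 0.00871). Slc26a9, an apical chloride channel, had 1.36, 0.621 and 0.32 CPM in nasopharynx and 341, 270.4 and 261 in lung (log2 difference -8.55 ± 0.54, -9.51 after trace subtraction). The Aqp5 call was lost without nasopharynx replicate 1 or any single lung library, and Aqp3 had a log2 difference of 8.64 without lung replicate 1 in place of 7.22. Omitting nasopharynx replicate 1 gave a log2 difference of -9.29 for Scnn1g and -9.28 for Slc26a9.

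Signalling genes were called in both directions. In the Wnt pathway 8 of 29 were higher in nasopharynx and 8 in lung, against 15.4% and 15.6% of all genes. Without lung replicate 1 the counts were 4 and 5, in a fit that called only 1315 and 1735 of all genes in these directions. Without nasopharynx replicate 3 or lung replicate 3 they were 5 and 8 or 6 and 5. Nkd1, a feedback inhibitor that Wnt signalling switches on, had 0.545, 0.133 and 0.641 CPM in nasopharynx and 140.3, 86.6 and 94.6 in lung (log2 difference -7.91 ± 0.53, adjusted p 0.00026), and Sp5, another Wnt target, 1.09, 0.488 and 0.687 CPM in nasopharynx and 10.1, 16.6 and 12.8 in lung (log2 difference -4.12 ± 0.44, adjusted p 0.000959). Axin2, the most used Wnt target, had 2.73, 2.75 and 2.98 CPM in nasopharynx and 2.79, 6.88 and 5.55 in lung and was not called. Fzd5, a Wnt receptor, had 22.4, 24.8 and 24.3 CPM in nasopharynx and 71.7, 62 and 80.3 in lung (adjusted p 0.00113). Nkd1 and Sp5 were thus high in all lung libraries, while Axin2 stayed under 10 CPM throughout. The R-spondin receptors Lgr4, at 44.6, 32.3 and 61.6 CPM in nasopharynx and 10.5, 10.002 and 7.83 in lung, and Lgr6, at 18.2, 2.53 and 7.19 CPM in nasopharynx and 0.107, 0.0481 and 0 in lung, were higher in nasopharynx (adjusted p 0.0019 and 0.00361), as was the ligand Wnt10a, at 9.41, 4.52 and 5.91 CPM in nasopharynx and 0.806, 0.289 and 0.363 in lung (adjusted p 0.00345).

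Notch receptors were higher in nasopharynx for 2 of the 4. Notch1 had 214, 92.1 and 204 CPM in nasopharynx and 18.3, 18.9 and 16.8 in lung (log2 difference 3.24 ± 0.35, adjusted p 0.00104) and Notch3 184, 118 and 443 CPM in nasopharynx and 11.6, 6.59 and 7.21 in lung (log2 difference 4.88 ± 0.58, adjusted p 0.00148). Jag1, a Notch ligand, had 108, 46 and 105 CPM in nasopharynx and 24.1, 24.2 and 29.2 in lung (adjusted p 0.00942). Notch2 had 85.7, 76.4 and 55.6 CPM in nasopharynx and 107, 104 and 109 in lung and was not called, and Notch4, higher in lung at 0.636, 0.488 and 1.19 CPM in nasopharynx and 3.44, 3.75 and 3.68 in lung, lost its call without lung replicate 3. Hey1, a Notch target, had 15.9, 2.48 and 29.4 CPM in nasopharynx and 0.699, 0.144 and 0.156 in lung (adjusted p 0.00967), while Hes1, another, had 81.2, 22 and 76.4 CPM in nasopharynx and 57.1, 32.2 and 48.1 in lung and was not called. Hes2, a relative of Hes1, had 0.0454, 0.177 and 0.641 CPM in nasopharynx and 3.17, 2.98 and 2.85 in lung (adjusted p 0.0177). In the whole pathway 7 of 14 were higher in nasopharynx and 2 in lung, and without lung replicate 3 the counts were 4 and 0. Without nasopharynx replicate 1 or 2 they were 5 and 4 or 7 and 1, and without lung replicate 1 or 2 they were 6 and 1 or 4 and 1. Leaving out nasopharynx replicate 3 gave log2 differences of 4.13 for Notch3. Calls were lost for Hes2 without nasopharynx replicate 2 or lung replicate 1 or lung replicate 2 or lung replicate 3.

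Fibroblast and epidermal growth factor genes were called in both directions. Over the 26 tested genes of both families 10 were higher in nasopharynx and 8 in lung, and without lung replicates 1, 2 or 3 the nasopharynx count was 6, 5 or 4. Fgfr2, the receptor needed for lung branching and type 2 cell upkeep, had 45.9, 27.7 and 60.7 CPM in nasopharynx and 709, 689 and 797 in lung (log2 difference -4.03 ± 0.34, adjusted p 0.000461), and the ligand Fgf18 had 0.182, 0.133 and 0.0916 CPM in nasopharynx and 16.2, 13.4 and 17.8 in lung (log2 difference -6.80 ± 0.40, adjusted p 0.000168). Fgf1 had 2.23, 1.55 and 4.17 CPM in nasopharynx and 208, 146 and 151 in lung (log2 difference -5.99 ± 0.43, adjusted p 0.000299). Lung libraries were close together for Fgfr2, and no library overlapped between tissues for any of these genes. Another receptor, Fgfr1, at 67.2, 86.2 and 109 CPM in nasopharynx and 15.5, 36.5 and 14.6 in lung, was higher in nasopharynx (adjusted p 0.0114). The epidermal growth factor receptor Egfr had 135, 53.1 and 93.9 CPM in nasopharynx and 27.5, 13.8 and 13 in lung (log2 difference 2.38 ± 0.44, adjusted p 0.00771) and its ligand Epgn 8.73, 4.75 and 12 CPM in nasopharynx and 0.967, 0.289 and 0.622 in lung (adjusted p 0.00421), both higher in nasopharynx.

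Of 26 genes of the BMP, TGF-beta and hedgehog pathways 10 were higher in lung and 5 in nasopharynx, and without lung replicate 2 the counts were 6 and 4. Shh, the hedgehog ligand of foregut epithelium (chromosome 5 from 28456815 to 28467256), had 0.182, 0.0444 and 0 CPM in nasopharynx and 52.6, 42.8 and 56.7 in lung (log2 difference -9.28 ± 0.64, adjusted p 0.000284), and after trace subtraction -11.23. Its receptor and target Ptch1 had 22.4, 24.1 and 28.9 CPM in nasopharynx and 78.1, 59.5 and 68.3 in lung (adjusted p 0.0022). BMP ligands split: Bmp4 had 1.91, 0.932 and 3.11 CPM in nasopharynx and 348, 329 and 315 in lung (log2 difference -7.38 ± 0.48, adjusted p 0.000233), while Bmp7 had 62.2, 24.9 and 71.9 CPM in nasopharynx and 2.04, 0.866 and 0.311 in lung (log2 difference 5.62 ± 0.75, adjusted p 0.00219). Bmp6 was also higher in nasopharynx, at 13.5, 33.5 and 34.4 CPM in nasopharynx and 2.85, 3.13 and 2.85 in lung (adjusted p 0.00196). Bmp4 was at or under 3.11 CPM in nasopharynx and above 300 CPM in lung, and Bmp7 was lowest in nasopharynx replicate 2. Grem1, a BMP antagonist of stromal cells, had 0.454, 0.932 and 0.732 CPM in nasopharynx and 74.3, 104 and 29.7 in lung (adjusted p 0.000565). Id4, a BMP-induced inhibitor of helix-loop-helix factors, had 23.7, 4.13 and 37.3 CPM in nasopharynx and 0.43, 0.529 and 0.311 in lung (adjusted p 0.0039). In the fit without lung replicate 1 the log2 difference was 6.46 for Bmp7. Without nasopharynx replicate 1 the log2 difference was -10.82 for Shh.

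The nasopharynx libraries differed among themselves in proliferation and stress genes. Of 28 cell cycle genes none was called by edgeR, although their median log2 difference was 1.21. Their summed level was 3811, 266 and 345 CPM in nasopharynx and 437, 871 and 605 in lung. Mki67, the proliferation antigen, had 480.4, 5.01 and 20.8 CPM in nasopharynx and 46.5, 100.4 and 68.5 in lung, and Top2a, the topoisomerase of dividing cells, 493, 8.61 and 34.7 CPM in nasopharynx and 33.6, 72.5 and 47.5 in lung. Nasopharynx replicate 1 lay above every lung library for both and replicate 2 below every one. None of the 28 had an unadjusted p under 0.05, and DESeq2 called 0 of them. Without nasopharynx replicate 1 the list median was -1.34, and 6 of the genes were higher in lung.

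A list of Myc family, ribosome biogenesis and other growth genes, Myc among them, was higher in nasopharynx for 14 of 21 tested, with none higher in lung. Without lung replicates 1, 2 or 3 the count was 3, 7 or 3, and with all libraries a difference over 2-fold was shown for 2. The summed level was 5955, 2442 and 2261 CPM in nasopharynx and 1791, 2036 and 1687 in lung. Myc itself, a growth-promoting transcription factor, had a log2 difference of 2.78 ± 0.36 and an adjusted p of 0.00205, with 88, 68.6 and 54.3 CPM in nasopharynx and 7.2, 15.4 and 8.09 in lung. Gnl3, the nucleolar protein nucleostemin, had 87.5, 104 and 36.3 CPM in nasopharynx and 14.5, 20.1 and 15.4 in lung (adjusted p 0.00722), and Wdr12, a ribosome assembly factor, 37.8, 24.9 and 18.9 CPM in nasopharynx and 9.08, 9.38 and 6.69 in lung (adjusted p 0.0082). For Myc and Wdr12 nasopharynx replicate 1 was the highest library, as it was for the cell cycle genes.

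Stress and immediate early genes were higher in nasopharynx for 13 of 20, and without lung replicates 1, 2 or 3 the count was 7, 8 or 7. Their summed level was 5097, 14521 and 3299.8 CPM in nasopharynx and 1528, 1679 and 1606 in lung. Hspa1b, an inducible heat shock protein, had 1096, 4406 and 513 CPM in nasopharynx and 75.6, 67.4 and 77 in lung (log2 difference 4.77 ± 0.83, adjusted p 0.00605). Chac1, a glutathione-degrading enzyme of the ATF4 response, had 57.7, 255 and 57.1 CPM in nasopharynx and 3.33, 6.06 and 4.25 in lung (log2 difference 4.76 ± 0.72, adjusted p 0.00363), and Asns, asparagine synthetase of the same response, 124, 339.7 and 293 CPM in nasopharynx and 38.6, 37.4 and 24.7 in lung (log2 difference 2.91 ± 0.42, adjusted p 0.00288). Nasopharynx replicate 2 was the highest library for these genes, and the other nasopharynx libraries still lay above lung. Egr1, an immediate early factor, had 149, 167 and 107 CPM in nasopharynx and 15.9, 25.1 and 13.1 in lung (log2 difference 2.97 ± 0.32, adjusted p 0.000996). Without nasopharynx replicate 2 the log2 difference was 3.45 for Hspa1b and 3.65 for Chac1. In the p53 pathway 5 of 15 were higher in nasopharynx, against 15.4% of all genes, none in lung and 10 were not called. Those higher included Perp and Phlda3, an inhibitor of AKT, at 349.6, 297 and 486 CPM in nasopharynx and 59.3, 68 and 72.3 in lung (adjusted p 0.000698). Cdkn1a, the cell cycle inhibitor p21, had 293, 515 and 214 CPM in nasopharynx and 84.9, 103 and 92.2 in lung (adjusted p 0.00687), and without nasopharynx replicate 2 or 3 there was 1 gene higher in lung.

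**Figure D4:**
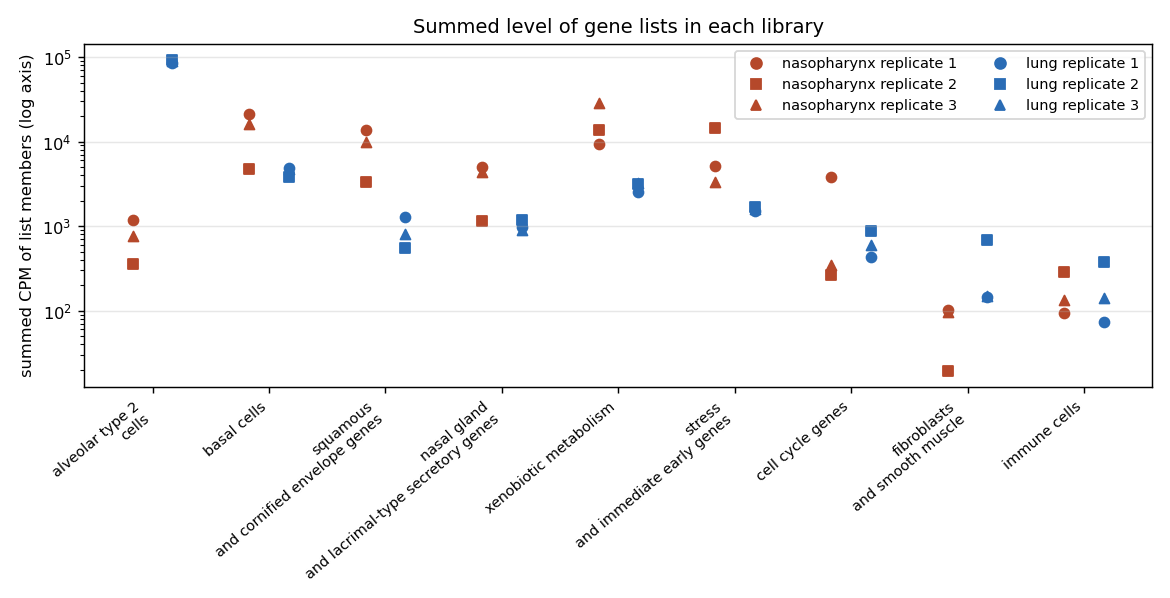
Summed CPM (log axis) of the members of 9 gene lists in each nasopharynx (red) and lung (blue) library. Cell cycle genes are highest in nasopharynx replicate 1, stress genes in nasopharynx replicate 2 and xenobiotic genes in nasopharynx replicate 3, while fibroblast and immune genes are highest in lung replicate 2.

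Of 16 antigen presentation genes 6 were higher in lung, against 15.6% of all genes, and 10 were not called. Cd74, the invariant chain that type 2 cells as well as immune cells express, had 1.36, 0.355 and 0.0916 CPM in nasopharynx and 111, 78.4 and 73.1 in lung (log2 difference -7.17 ± 0.78, adjusted p 0.00111), and without nasopharynx replicate 1 -8.60. Ciita, the transactivator of class II genes, had 0.636, 0.355 and 0.458 CPM in nasopharynx and 2.74, 3.61 and 2.33 in lung (adjusted p 0.00535), and the class II chain H2-Ab1 4.09, 0.976 and 4.53 CPM in nasopharynx and 6.66, 4.76 and 2.7 in lung with no call. H2-DMb1, which helps to load class II molecules, had 1.59, 1.55 and 5.22 CPM in nasopharynx and 22.6, 25.5 and 23.4 in lung (adjusted p 0.00563). Of 23 interferon-stimulated genes 5 were higher in lung, a share near the 15.6% of all genes, and the others were not called, with a median log2 difference of -0.92. That median was 0.24 without lung replicate 2, and the count was 3 without it, 9 without nasopharynx replicate 2 and 3 without nasopharynx replicate 3. Ddx58, the RNA sensor RIG-I, had 19.1, 20.3 and 17.7 CPM in nasopharynx and 45.5, 70.5 and 52.3 in lung (log2 difference -1.56 ± 0.22, adjusted p 0.00262). Ifit3, an interferon-induced inhibitor of translation of viral RNA, had 1.55, 7.19 and 1.19 CPM in nasopharynx and 25.5, 117 and 28.4 in lung (adjusted p 0.0175). It was highest in lung replicate 2. Cxcl10, an interferon-induced chemokine, had 0.863, 4.26 and 0.366 CPM in nasopharynx and 0.322, 93.6 and 1.66 in lung and was not called, with lung replicate 2 far above every other library. The list's median was -2.03 without nasopharynx replicate 2.

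Fibroblast markers were mostly higher in lung. Of 13 fibroblast and smooth muscle genes 11 were higher in lung and 1 in nasopharynx, and their sum was 101, 19.1 and 96 CPM in nasopharynx and 143, 679.98 and 149 in lung. The single nasopharynx call was absent without nasopharynx replicate 1 or 3 or lung replicate 1 or 3. Members with few nasopharynx counts, such as Col3a1 and Pdgfrb, passed the filter on low counts through the lung libraries, which favours the lung direction. Col3a1, a collagen of fibroblasts, had 0.5, 0.177 and 0.778 CPM in nasopharynx and 10.2, 169.8 and 24.9 in lung (log2 difference -7.12 ± 1.31, adjusted p 0.00731), and Pdgfrb, a receptor of pericytes and fibroblasts, 0.364, 0.133 and 0.504 CPM in nasopharynx and 7.95, 21 and 7 in lung (adjusted p 0.00246). Lung replicate 2 was the highest for both, and without it the log2 difference of Col3a1 was -5.17. Col6a3, a collagen VI chain, had 0.409, 1.02 and 1.14 CPM in nasopharynx and 9.62, 25.9 and 8.66 in lung (adjusted p 0.00397), and Col5a1, a fibril-forming collagen chain, 3.36, 2.35 and 2.33 CPM in nasopharynx and 19.3, 73.5 and 18.2 in lung (adjusted p 0.00526). Fbln1, a matrix protein, was higher in nasopharynx at 89.3, 9.98 and 75.4 CPM in nasopharynx and 4.03, 9.23 and 2.33 in lung, and was that call. Acta2 and Tagln, smooth muscle markers, were under 1 CPM in every library and were not tested. The part of these cells in the lung-higher calls of Tbx4, Grem1 and the Hox genes, which were also highest in lung replicate 2, was not tested.

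Among 15 immune genes 5 were higher in lung and 2 in nasopharynx, with a sum of 93.6, 286 and 135 CPM in nasopharynx and 74.1, 381 and 143 in lung. Marco, a scavenger receptor of alveolar macrophages, had 1.55, 0.266 and 0.87 CPM in nasopharynx and 4.3, 169 and 25.6 in lung, and C1qc, a complement component of macrophages, 0.0454, 0 and 0.0916 CPM in nasopharynx and 0.645, 10.8 and 2.49 in lung. Both were highest in lung replicate 2. Members with few or no nasopharynx counts, such as C1qc and Mrc1, passed the filter on low counts through the lung libraries, which favours the lung direction. The adjusted p was 0.0183 for Marco and 0.0124 for C1qc, and the Marco call was lost without nasopharynx replicate 2 or 3. The lung count of the list was 9 without nasopharynx replicate 1, and 2 without nasopharynx replicate 3 or lung replicate 2. The nasopharynx count was 1 without nasopharynx replicate 2 or lung replicate 1 and 0 without lung replicate 3. Mrc1, the mannose receptor of macrophages, had 0.409, 0 and 0.275 CPM in nasopharynx and 2.31, 9.91 and 3.52 in lung (adjusted p 0.019), and S100a9, a calprotectin chain of neutrophils and squamous cells, 10.1, 4.13 and 20.6 CPM in nasopharynx and 0.752, 0 and 0.363 in lung (adjusted p 0.0156). Ptprc, the pan-leukocyte CD45, had 1.09, 0 and 0.275 CPM in nasopharynx and 0.967, 5.05 and 3.78 in lung, and the lymphocyte genes Cd3d and Ms4a1 had no count in any library. Cd68, a lysosomal protein of macrophages, was higher in nasopharynx at 12.2, 255 and 82.2 CPM in nasopharynx and 2.74, 10.4 and 4.61 in lung, highest in replicate 2, where Ptprc had no count, and its call was lost without nasopharynx replicate 2 or lung replicate 1 or 3. Of 5 endothelial genes tested 2 were higher in lung, or 1 without lung replicate 1. Esam, an adhesion molecule, had 1.68, 1.46 and 2.43 CPM in nasopharynx and 117, 139.99 and 117 in lung (log2 difference -6.06 ± 0.27, adjusted p 0.000128). Vwf, von Willebrand factor, had 0.545, 1.02 and 2.38 CPM in nasopharynx and 7.31, 4.47 and 10.005 in lung (adjusted p 0.0237), while Cdh5 and Kdr, the defining endothelial receptors, were under 1 CPM in every library. The call was lost for Mrc1 without nasopharynx replicate 3 or lung replicate 2, S100a9 without lung replicate 3 and Vwf without nasopharynx replicate 2 or lung replicate 1 or lung replicate 3.

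Neuronal, glial and olfactory genes were also sparse. In the lists of this paragraph, Sox10, Calca and Acta1 passed the filter on low counts through the nasopharynx libraries and Cnga2 through the lung libraries. The direction of such calls was nearly fixed by the filter. Sox10, a factor of glia and of gland myoepithelium, had 14.6, 5.06 and 3.2 CPM in nasopharynx and 0, 0.0481 and 0 in lung, with 1 lung count in all (ratio 447, counting interval 80.2 to 17657, adjusted p 0.00206). Omp, which defines mature olfactory neurons, had 2.32, 0.532 and 0.641 CPM in nasopharynx and 0.161, 0.481 and 0.259 in lung and was not called. Cnga2, a cyclic nucleotide-gated channel subunit known from olfactory neurons, had no count in nasopharynx and 8.92, 10.3 and 9.12 CPM in lung, at least 209-fold higher in lung (adjusted p 0.000627). Omp was thus near the floor in both tissues, and Cnga2 was at a level in the 3 lung libraries. Tubb3, a neuronal tubulin, had 44.7, 6.21 and 8.38 CPM in nasopharynx and 0.107, 0.914 and 0.207 in lung (adjusted p 0.0109), Adcy3, an adenylyl cyclase of cilia, 19, 12.3 and 18.7 CPM in nasopharynx and 13.5, 10.2 and 10.3 in lung (adjusted p 0.167). Of 11 genes of this list 4 were higher in nasopharynx and 1 in lung, and without lung replicate 1 or 3 the nasopharynx count was 2 or 1. Of 6 neuroendocrine, tuft and ionocyte genes 2 were higher in nasopharynx and 1 in lung: Calca, the neuropeptide CGRP, had 1.73, 0.577 and 0.549 CPM in nasopharynx and 0, 0.0962 and 0 in lung (adjusted p 0.0165), Avil, a villin relative of tuft cells, 1.82, 1.86 and 0.778 CPM in nasopharynx and 0.43, 0.0962 and 0.207 in lung (adjusted p 0.0238) and Dclk1, a tuft cell kinase, 4.23, 2.4 and 5.49 CPM in nasopharynx and 9.996, 7.65 and 13.1 in lung (adjusted p 0.0435). Mesothelial genes were called for 1 of 3 tested, Gpm6a, a membrane glycoprotein, at 1.05, 2.4 and 31.2 CPM in nasopharynx and 0.806, 0.289 and 0.467 in lung (adjusted p 0.0457). Skeletal muscle genes were low, with sums of 9.72, 6.17 and 8.61 CPM in nasopharynx and 7.47, 10.4 and 6.17 in lung. Acta1, skeletal actin, had 0.591, 0.577 and 0.504 CPM in nasopharynx and 0, 0.0481 and 0.0518 in lung (adjusted p 0.00698), Tnni2, a troponin, 5.54, 0.932 and 0.549 CPM in nasopharynx and 0.107, 0.192 and 0.259 in lung (adjusted p 0.0362), and Mylpf, a myosin light chain, 2.5, 3.77 and 6 CPM in nasopharynx and 4.41, 3.94 and 4.1 in lung (adjusted p 0.973). Des, desmin, was the member higher in lung, at 0.273, 0.133 and 0.961 CPM in nasopharynx and 2.69, 5.77 and 1.4 in lung (adjusted p 0.0434). No haemoglobin or other red blood cell gene passed the filter. Alas2, which makes haem, had 0.5, 0.133 and 0.0916 CPM in nasopharynx and 0.269, 0.192 and 0.156 in lung. Moves of over 1.5 times in these ratios or bounds followed from leaving out lung replicate 2 (at least 96.2 for Sox10), nasopharynx replicate 1 (242 for Sox10) and nasopharynx replicate 2 (at least 138 for Cnga2). The call was lost for Tubb3 without lung replicate 3, Calca without lung replicate 1 or lung replicate 3, Avil without nasopharynx replicate 1 or nasopharynx replicate 2 or lung replicate 2 or lung replicate 3, Dclk1 without nasopharynx replicate 1 or nasopharynx replicate 2 or lung replicate 1 or lung replicate 2 or lung replicate 3, Gpm6a without nasopharynx replicate 3 or lung replicate 1 or lung replicate 2 or lung replicate 3, Tnni2 without nasopharynx replicate 1 or lung replicate 1 or lung replicate 2 or lung replicate 3 and Des without nasopharynx replicate 1 or nasopharynx replicate 2 or lung replicate 1 or lung replicate 2 or lung replicate 3.

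Further genes of large difference belonged to no list. Cpe, a carboxypeptidase that processes peptide hormones (chromosome 8 from 64592542 to 64693054), had 264, 208 and 405 CPM in nasopharynx and 5.11, 3.22 and 3.32 in lung (log2 difference 6.24 ± 0.38, adjusted p 0.000208). Slc1a4, a neutral amino acid transporter, had 281, 574 and 1066 CPM in nasopharynx and 8.87, 14.3 and 9.54 in lung (log2 difference 5.87 ± 0.58, adjusted p 0.000756). Every nasopharynx library was above 200 CPM for both, and no lung library reached 15 CPM. In lung, Lgi3, a secreted leucine-rich protein (chromosome 14 from 70530685 to 70538324), had 3.09, 0.577 and 0.961 CPM in nasopharynx and 978, 1107 and 1191 in lung (log2 difference -9.46 ± 0.74), and Ndnf, a secreted fibronectin type III protein (chromosome 6 from 65671590 to 65712326), 3.59, 1.29 and 0.824 CPM in nasopharynx and 1689.8, 1109.9 and 1469.8 in lung (log2 difference -9.54 ± 0.71). After trace subtraction the log2 differences were -12.63 and -13.30, and the adjusted p before it were 0.000369 and 0.00031.
 The log2 difference without nasopharynx replicate 1 was -10.49 for Lgi3 and -10.42 for Ndnf. When nasopharynx replicate 3 was left out, the log2 difference was 5.24 for Slc1a4.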

How the data were processed

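RNA was measured by polyadenylated RNA sequencing in 3 Normal_nasopha and 3 Normal_lung organoid libraries. Per the submitters' processing notes, STAR was the aligner and mm10 the genome build. The values used here are the raw counts of reads per gene that the authors deposited. How reads were counted, with which strand setting and which tool versions, is not stated. The same deposited table holds the authors' log2 fold changes and adjusted p-values from DESeq2. The authors' deposited table called 6219 genes, of which 4858 were also called here in the same direction and 0 in the opposite one.

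Of 51912 entries, 24781 had no symbol, and 24552 of these were named from GENCODE by identifier. Counts of 26 symbols that a spreadsheet had turned into dates were restored by identifier. The 5 tables of other comparisons were not used, and 3 count columns in them match no sample. Genes were filtered with filterByExpr, scaled by TMM and tested with edgeR 4.0.16 in R 4.3.3 (quasi-likelihood test, and glmTreat for differences over 2-fold), with Benjamini-Hochberg adjustment over all genes tested and a threshold of 0.05. The script was tested on simulated counts. Alternatives used DESeq2 1.42.0, other scaling and filters, each library left out, a replicate block, trace subtraction and a length and GC correction with mgcv 1.9.3. Intervals are exact Poisson intervals at 95% and, like the floor of 3 counts, cover counting error only.

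The members, gene lists and tests were chosen with earlier results of these data known. Named genes are the 12 largest differences in each direction among well-expressed genes, the 3 called members of smallest adjusted p per list and direction, the most abundant member of each marker list and called members against their list's direction. Some genes that this rule names are not reported here. Other genes were named after their values were seen. Lists are described by counts and medians and were not tested as sets. Gene positions are GENCODE positions on GRCm38, and promoters come from RefSeq on GRCm38.p6.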

Additional observations from a re-analysis of the deposited data

How the results depend on the processing

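No called direction among the 150 named genes reversed under any alternative. Leaving out 1 library gave between 2657 and 5421 called genes, against 4935, and between 1452 and 2356 genes over 2-fold, against 2264. The lowest count of each came without lung replicate 3, where 132 of the 150 named genes kept their call and 41.2% of calls were higher in nasopharynx, against 49.7%. The cause was not tested. DESeq2 called 6113 genes, or 2079 over 2-fold, and size factors, other filters, trace subtraction and the length and GC correction gave 4580 to 4934.

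The median of the 5 alveolar genes in nasopharynx was 0.265%, 0.0641% and 0.0578% of lung after TMM scaling. Over all 18 alveolar type 2 genes it was 1.19%, 0.574% and 0.713%, and that list holds Il33, which was above lung in 2 nasopharynx libraries.

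Deviations from the group mean correlated at -0.196, -0.105 and -0.107 between same-numbered libraries of the tissues. Between unlike-numbered libraries they correlated at -0.0929 to 0.174. With 3 libraries per tissue these values cannot show whether replicate numbers pair the samples. The fit with the replicate number as a block called 3622 genes and 1898 over 2-fold.

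Genes near 0.14 CPM could not be told from no expression.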
